A study of Arabidopsis thaliana with 4 samples.

Results

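The two-replicate regions of the AtbZIP17 binding profile were chosen by their peak calls. Peaks of the 3 ChIP samples that overlapped by at least 1 bp were merged into regions, and a region was kept when it held peaks of exactly 2 samples and no base of it lay in the interval around a centromere. These intervals were 12.5 to 17.5 Mb of chromosome 1, 1.5 to 6.0 Mb of chromosome 2, 11.0 to 16.5 Mb of chromosome 3, 2.5 to 5.5 Mb of chromosome 4 and 9.5 to 14.5 Mb of chromosome 5. The rule gave 1069 regions out of 8992 merged regions in all, and 19 further regions with peaks of exactly 2 samples lay in or across the intervals. On the chromosome arms, the 1069 two-replicate regions stood beside 1304 regions with peaks of all 3 samples (three-replicate regions) and 6308 with a peak of 1 sample (single-replicate regions), so that they made up 12.3% of the 8681 arm regions. That share is fixed by the rule and is given as a description.

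All samples came from *Arabidopsis thaliana* seedlings of the genotype 35Spro::MYC-bZIP17, in which the strong 35S promoter of a plant virus drives a MYC-tagged AtbZIP17 in place of its own promoter. Seedlings of 13 days, grown at 22 °C, were kept at 42 °C for 2 h, and ChIP with an anti-MYC antibody was done in 3 samples, called replicates 1, 2 and 3 by their labels, while 1 input sample received no antibody. There was 1 condition, with neither an unheated sample nor a ChIP of untagged plants among those analysed here, and nothing in the labels says whether the 3 samples came from separate cultures of plants. The tissue was whole seedlings, so a region cannot be assigned to any cell type.

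AtbZIP17 is a transcription factor with a basic leucine zipper domain that is made as a protein anchored in the membrane of the endoplasmic reticulum (ER). Salt stress, ER stress and heat activate it, and the paper saw more of a smaller form of MYC-bZIP17 in heated seedlings. On activation it moves to the Golgi, is cut by proteases, and its cytosolic part enters the nucleus. There bZIP proteins of this family bind DNA elements, among them some with an ACGT core. The paper found the G box and the element ERSE-II enriched in AtbZIP17 peaks. These proteins activate genes for salt responses and for the unfolded protein response, the programme that raises the folding capacity of the ER. In ChIP-seq, a bound site appears as a pile of fragments over the level of the input, and the program MACS lists a peak where the pile passes a chosen *P* value. A site with enrichment close to that limit can pass in some samples and fail in others, so the number of samples with a peak is itself a readout.

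The deposited lists held 4523, 4491 and 4330 peaks in replicates 1, 2 and 3, which MACS called in each sample separately against the input at a *P* value limit of 0.001. On the arms, two-replicate regions took up 15.8% of the peaks of replicate 1, 17.0% of those of replicate 2 and 17.0% of those of replicate 3. Three-replicate regions took up 34.6%, 33.6% and 35.6% of the peaks in the same order of replicates. Read totals of the lists were not used, the depth is unknown, and no counting error can be given for a pileup, and coordinates are those of the lists, whose build the submitters' processing notes give as TAIR10.

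The 3 pairs of replicates contributed similar numbers of two-replicate regions. Replicates 2 and 3 shared 385 of them (36.0%), replicates 1 and 2 shared 355 (33.2%), and replicates 1 and 3 shared 329 (30.8%). Replicate 2 therefore had a peak in 740 of the 1069 regions, replicate 3 in 714 and replicate 1 in 684. No single list supplied the regions: each replicate was the missing one in 385 (replicate 1), 329 (replicate 2) or 355 (replicate 3) cases. In 11 regions a replicate had more than 1 peak, and its strongest peak by fold enrichment was used.

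Two-replicate regions were weak. Fold enrichment is the pileup at the summit (the number of stacked fragments) over the local background that MACS took from the input, and its median in two-replicate regions was 2.17 in replicate 1, 2.20 in replicate 2 and 2.20 in replicate 3 (mean of the 3 medians 2.19 ± 0.0164, SD, n = 3). It was 2.95, 3.17 and 3.13 in three-replicate regions (3.08 ± 0.118) and 2.10, 2.10 and 2.11 in single-replicate regions (2.10 ± 0.00819). In each replicate the two-replicate median was above the single-replicate one by less than it was below the three-replicate one. Because the classes were selected on the same calls, these values describe them and were not tested.

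The pileup told the same order. Its median was 34, 34 and 33 fragments in replicates 1, 2 and 3 of the two-replicate regions, against 51, 55 and 52 in the three-replicate regions and 33, 33 and 32 in the single-replicate regions. Averaged over the 2 replicates with a peak, the pileup of a two-replicate region ran from 22 to 62.5 with a median of 34, and the fold enrichment ran from 1.76 to 3.49 with quartiles of 2.08 and 2.34. The background level that these values imply had medians of 14.5 to 15.3 fragments over the 3 replicates under two-replicate regions, 15.3 to 16.1 under three-replicate regions and 14.7 to 15.1 under single-replicate regions, so the ratios differed through the pileup more than through the background.

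**Figure D1:**
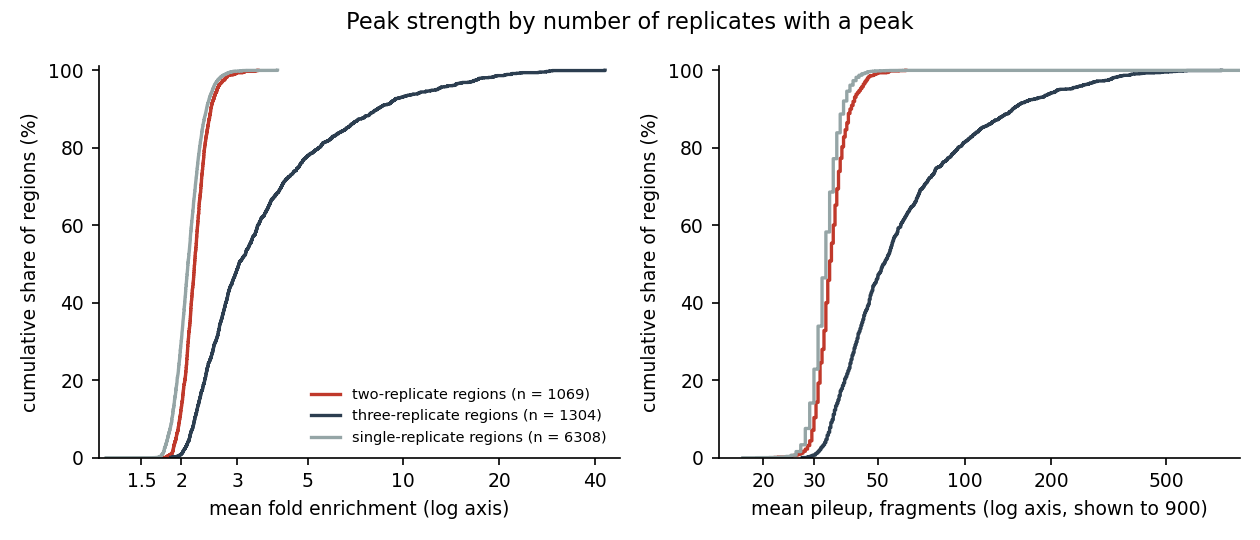
Cumulative share of regions (%) against the mean fold enrichment (left, log axis) and the mean pileup in fragments (right, log axis), averaged over the replicates with a peak, for two-replicate, three-replicate and single-replicate regions of the chromosome arms. The curve of the two-replicate regions, with a median fold enrichment of 2.20, runs just right of that of the single-replicate regions (2.10), and the three-replicate regions (3.04) extend to 43.1. On the right, 2 single-replicate regions lie beyond the end of the axis.

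Few two-replicate regions passed stricter limits. A *q* value under 1e-05 in both replicates was reached by 30 of the 1069 two-replicate regions (2.81%), by 770 three-replicate regions (59.0%, in all 3 replicates) and by 251 single-replicate regions (3.98%), with 12.1% over all arm regions. A fold enrichment of at least 3 in every replicate present was reached by 4 two-replicate regions (0.374%), 556 three-replicate regions (42.6%) and 14 single-replicate regions (0.222%), with 6.61% over all arm regions. These shares rest on the calls that chose the classes, and a region with more replicates has to pass in more of them. A *q* value under 0.01 in both replicates was reached by 789 two-replicate regions (73.8%), and 26 (2.43%) had a fold enrichment of at least 3 in 1 replicate or both.

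Within a two-replicate region the 2 peaks were of nearly equal height. The stronger peak exceeded the weaker one by a median of 1.11-fold, by 1.28-fold at the 90th percentile and by 1.58-fold at most, and 7 regions exceeded 1.5-fold. Across regions, however, the 2 replicates ranked them differently: the Spearman correlation of fold enrichment was 0.0630 for replicates 1 and 2 (355 regions), 0.150 for replicates 1 and 3 (329) and 0.221 for replicates 2 and 3 (385). For the same pairs it was 0.870, 0.872 and 0.889 over the 1304 three-replicate regions. The fold enrichments of the two-replicate regions span a narrow range with the calling limit as its floor, both peaks share 1 input, and the coefficients are descriptions. The pileup gave 0.366, 0.448 and 0.460 in two-replicate regions. Unlike the fold enrichment, it is not divided by the local background, and whether that accounts for its higher coefficients was not tested.

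**Figure D2:**
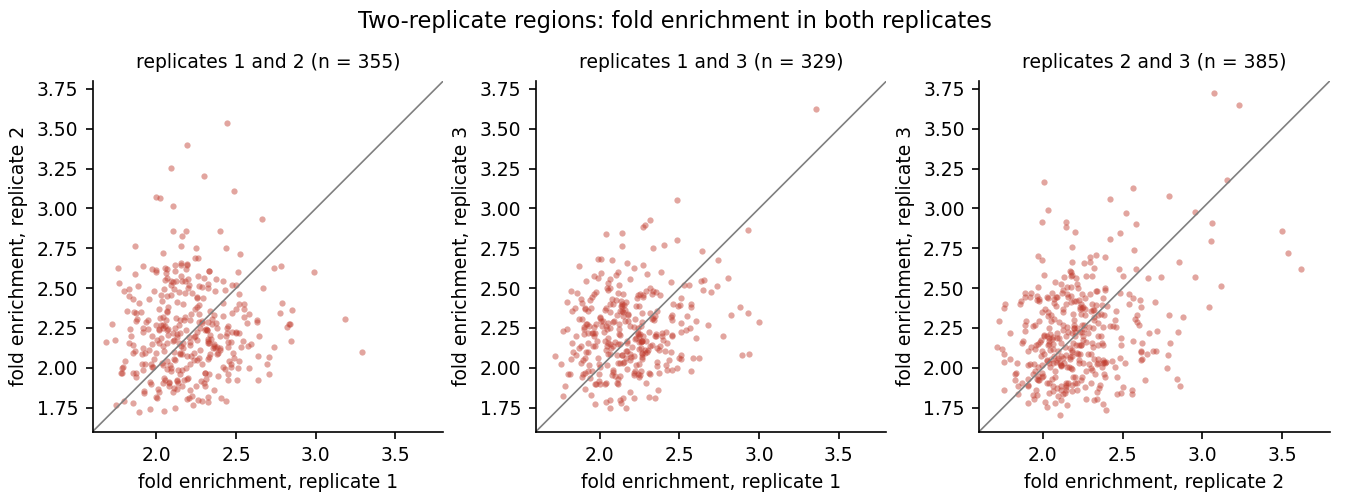
Fold enrichment of each two-replicate region in its 2 replicates, a panel for each pair, a point for each region (355, 329 and 385), with the line of equal values in grey. The points form a round cloud between about 1.7 and 3.0, and the 3 regions with the highest mean stand at the upper right, 1 of replicates 1 and 3 and 2 of replicates 2 and 3.

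The strongest two-replicate region by mean fold enrichment lay at 2529270 to 2530235 of chromosome 5. Its fold enrichment was 3.35 in replicate 1 and 3.62 in replicate 3, with pileups of 53 and 54 and summits 32 bp apart. The nearest peak of replicate 2 began 906 bp from its edge. The second lay at 16130197 to 16130828 of chromosome 4, with 3.23 in replicate 2 and 3.65 in replicate 3 and pileups of 52 and 57, and the third at 8404287 to 8405054 of chromosome 3, with 3.08 in replicate 2 and 3.73 in replicate 3 and pileups of 55 and 63. Neither had a peak of replicate 1 within 6 kb: the nearest were 6745 and 7979 bp away. These 3 regions also had the highest *P* value scores of a weaker peak, with a −log10 *P* of 14.1, 13.2 and 13.0 against a median of 4.44 over all two-replicate regions. The fourth region with a fold enrichment of at least 3 in both replicates lay at 12369487 to 12370518 of chromosome 4, where replicate 2 had 3.15 and replicate 3 had 3.18, with summits 2 bp apart.

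Of the 10 two-replicate regions with the highest mean fold enrichment, 8 belonged to replicates 2 and 3, 1 to replicates 1 and 3 and 1 to replicates 1 and 2. Besides the 4 above, they lay at 22928838 to 22930091 of chromosome 3 (3.50 and 2.86 in replicates 2 and 3), 13106627 to 13107134 of chromosome 2 (3.54 and 2.72), 811997 to 812709 of chromosome 3 (3.62 and 2.62), 6352213 to 6352661 of chromosome 1 (3.06 and 2.91) and 16149783 to 16150431 of chromosome 2 (2.95 and 2.98), all of replicates 2 and 3. The last of the 10, at 17263054 to 17263681 of chromosome 4, had 2.44 in replicate 1 and 3.53 in replicate 2, and a peak of replicate 3 lay 174 bp from it. The summits of the 10 agreed closely, with distances of 2 to 109 bp and a median of 28.5 bp. All 10 were more than 10 kb from any three-replicate region, at 12.3 to 149 kb, while 44.6% of all 1069 two-replicate regions were within 10 kb. In 8 of the 10 the missing replicate had no peak within 1 kb. That was the more common case in general, since only 27.9% of the 1069 had such a peak.

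High pileup did not always go with high fold enrichment. The highest mean pileup, 62.5, was at 17089156 to 17089827 of chromosome 2, where replicate 2 had 70 fragments and replicate 3 had 55, but the fold enrichments were 2.11 and 1.71. Below the top 2, 4 regions tied at a mean pileup of 54.5, all of replicates 2 and 3. The one at 4431009 to 4431472 of chromosome 5 had 56 and 53 fragments with fold enrichments of 2.58 and 2.62, and the one at 18698563 to 18699766 of chromosome 2 had 59 and 50 fragments with 3.11 and 2.52. The other 2 of the tied regions, and the second by pileup, are among the 10 strongest by fold enrichment.

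The 3 regions with the most unequal peaks lay at 18855967 to 18856926 of chromosome 5 (2.01 in replicate 2 and 3.16 in replicate 3), 2165154 to 2165726 of chromosome 1 (3.29 in replicate 1 and 2.10 in replicate 2) and 9121161 to 9121879 of chromosome 2 (2.09 in replicate 1 and 3.26 in replicate 2). At the low end, the weaker peak just passed the limit at 9387444 to 9388318 of chromosome 1 (−log10 *P* of 3.01), 17892201 to 17892632 of chromosome 5 (3.01) and 22182774 to 22183122 of chromosome 1 (3.02). Their weaker peaks had fold enrichments of 1.80, 1.80 and 1.82.

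Summits of the 2 replicates agreed only loosely in most two-replicate regions. The median distance between them was 176 bp, with quartiles of 75 and 329 bp and a maximum of 1774 bp. They were within 50 bp of each other in 171 regions (16.0%), within 200 bp in 599 (56.0%) and farther apart in 470 (44.0%). In three-replicate regions, the median over 3912 summit pairs was 55 bp, with 47.2% within 50 bp and 82.1% within 200 bp. The difference held for each pair of replicates: the medians were 184 bp in two-replicate regions against 58 bp in three-replicate regions for replicates 1 and 2, 175 against 55 bp for replicates 1 and 3, and 168 against 52 bp for replicates 2 and 3.

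**Figure D3:**
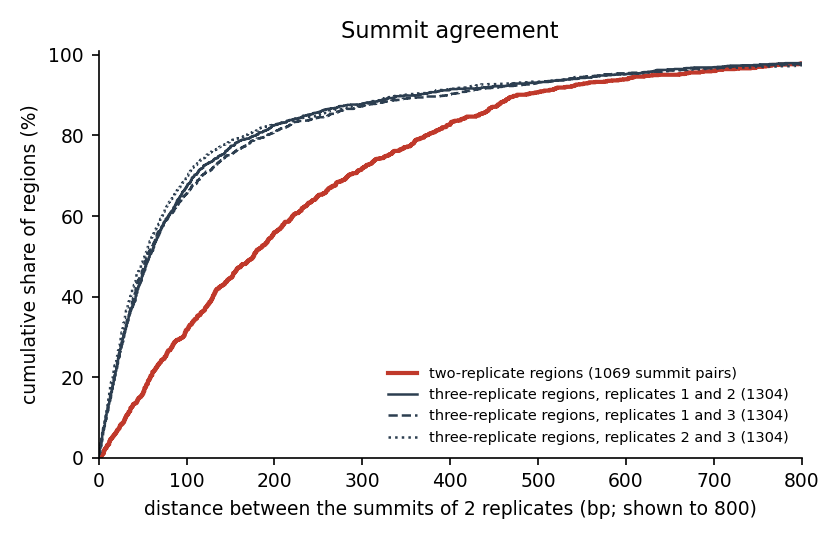
Cumulative share of regions (%) against the distance between the summits of 2 replicates in bp, for the 1069 two-replicate regions and for each pair of replicates in the 1304 three-replicate regions. At 200 bp the two-replicate curve stands at 56.0% and the 3 three-replicate curves at 80.9 to 82.7%.

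Strength moved with this difference. When both classes were limited to a mean fold enrichment of 1.93 to 2.59, the median summit distance was 180 bp in 961 two-replicate regions and 155 bp over 1203 summit pairs of 401 three-replicate regions, and 54.3% against 59.3% were within 200 bp. The two-replicate regions of this range were narrower, with a median of 646 bp against 926 bp in the three-replicate regions, and had a slightly lower median fold enrichment, 2.20 against 2.30. Among the two-replicate regions themselves, split into 4 equal groups by mean fold enrichment, the strongest group (2.34 to 3.49, 267 regions) had a median summit distance of 133 bp, while the other groups had 184, 194 and 181 bp from stronger to weaker. Regions with summits over 200 bp apart were also wider, with a median of 721 bp, than those with summits within 50 bp, with 573 bp.

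The peaks of the 2 replicates nevertheless overlapped over much of their length. Two-replicate regions had a median width of 649 bp, against 1440.5 bp for three-replicate and 353 bp for single-replicate regions. The median overlap was 272 bp, or 82.6% of the shorter peak, and 786 regions (73.5%) had an overlap of at least 50% of the shorter peak. In 76 regions (7.11%) the peaks overlapped by less than 50 bp.

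In a minority of the two-replicate regions the missing replicate had a peak close by, more often than at positions moved along the chromosome. In 298 of the 1069 two-replicate regions (27.9%), the list of the missing replicate held a peak that did not touch the region but lay within 1 kb of its edge. For comparison, the same regions were moved along their chromosome by 10, 20, 50, 100, 200 and 500 kb in both directions, as 12 fixed moves with no test, and then 6.43 to 10.6% had such a peak. The median gap to the nearest peak of the missing replicate was 2849 bp, against 6710 to 9996 bp for the moved positions. By missing replicate, the share within 1 kb was 24.7% (replicate 1), 28.9% (replicate 2) and 30.4% (replicate 3). Of the 298 nearby peaks, 128 (43.0%) belonged to a three-replicate region, 57 (19.1%) to another two-replicate region and 113 (37.9%) to a single-replicate region. Among all arm peaks of a replicate, the same classes held 33.6 to 35.6%, 15.8 to 17.0% and 47.4 to 49.5%. The difference between these shares was not tested.

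The border between classes was therefore a matter of a few bases for some regions. In 27 two-replicate regions the missing replicate had a peak at a gap of at most 50 bp, and the smallest gaps were 1, 3, 3, 5 and 5 bp. The mean fold enrichments of these 5 regions were 2.49, 2.36, 1.94, 2.20 and 2.62. On the other side, 12 three-replicate regions were joined to their last replicate by an overlap of at most 50 bp. The smallest overlaps were 4, 7, 9, 13 and 17 bp, in regions with mean fold enrichments of 2.33, 2.17, 2.21, 2.27 and 2.08.

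In places, 2 two-replicate regions stood next to each other and together held all 3 replicates. There were 11 pairs of neighbouring two-replicate regions with at most 200 bp between them, and in all 11 pairs the missing replicates differed. With at most 1000 bp there were 52 pairs, of which 34 had different missing replicates. Replicates 1, 2 and 3 were each missing in a similar number of two-replicate regions (385, 329 and 355). Most pairs of such regions taken without regard to position would therefore also lack different replicates. That share was not computed, so whether either count exceeds it was not tested. Neither count is therefore read as a result about these regions. The closest pair, on chromosome 4, was formed by 17146780 to 17147815, without replicate 3, and 17147821 to 17148777, without replicate 2, only 5 bp apart, with fold enrichments of 2.05 and 2.26 in the first and 2.73 and 2.51 in the second. These pairs were picked after their values were seen. Joined over gaps of at most 200 bp, each of the 11 pairs would hold all 3 replicates, while 18 of the 52 pairs within 1000 bp lacked the same replicate in both regions.

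A minority of the two-replicate regions lay near a region with all 3 replicates, more than at moved positions. Measured from mean summit to mean summit, 338 of the 1069 (31.6%) were within 5 kb of a three-replicate region and 133 (12.4%) within 2 kb. The moved positions gave 9.27 to 13.1% within 5 kb and 1.17 to 3.75% within 2 kb over the 12 moves. The median distance was 12712 bp, against 15664 to 28865 bp for the moved positions, where the lowest values came from the moves by 10 kb. At 20 kb the difference from the moved positions was smaller, with 59.8% of the two-replicate regions within 20 kb against 38.3 to 57.6% of the moved positions. The moves by 10 kb gave 56.5 and 57.6%, since a region moved so little can stay within 20 kb of the same three-replicate region. Moves by 50 kb or more gave 38.3 to 43.7%.

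Nearness to three-replicate regions was not limited to two-replicate regions. Single-replicate regions had a median distance of 18015 bp, and 22.1% of them were within 5 kb. The share within 5 kb was 34.6% for two-replicate regions of replicates 1 and 2, 32.8% for replicates 1 and 3 and 27.8% for replicates 2 and 3, so each pair exceeded the single-replicate regions. Moved positions that overlapped a three-replicate region were dropped, since a two-replicate region cannot overlap one either.

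**Figure D4:**
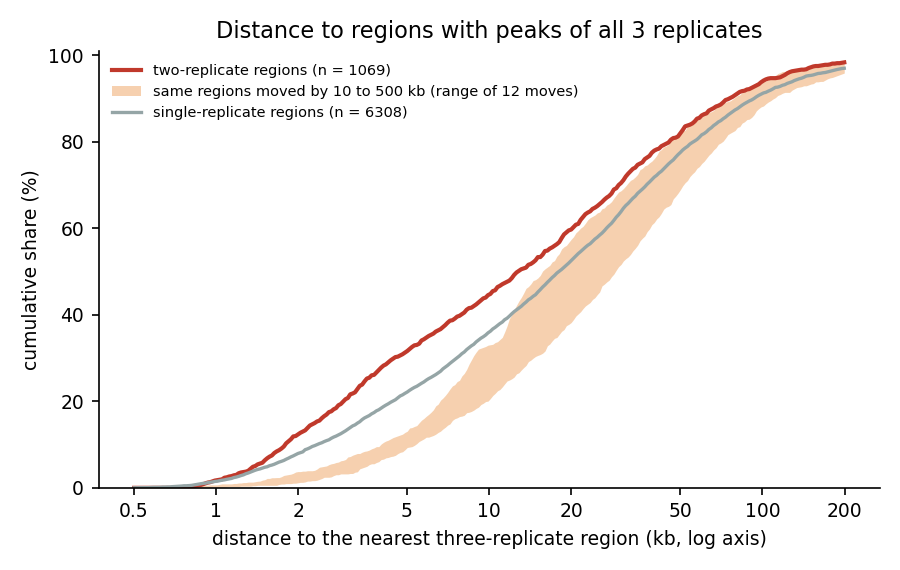
Cumulative share (%) against the distance to the nearest three-replicate region in kb (log axis) for the two-replicate regions, for the same regions moved by 10 to 500 kb (band: lowest to highest of 12 moves) and for single-replicate regions. At 5 kb the two-replicate regions stand at 31.6%, the band at 9.27 to 13.1% and the single-replicate regions at 22.1%.

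The strongest three-replicate regions had the most two-replicate neighbours. In 4 groups of 326 regions by mean fold enrichment, from weakest to strongest, 25.8%, 26.1%, 27.9% and 44.8% of the three-replicate regions had a two-replicate region within 5 kb of their edge. Within 1 kb the shares were 12.6%, 9.82%, 11.0% and 21.2%. The strongest group, with a mean fold enrichment from 4.69 to 43.1, was also the widest, with a median of 3079.5 bp against 894 bp in the weakest group. Single-replicate regions were within 5 kb of 68.1%, 70.9%, 73.3% and 81.6% of the same groups. Seen from the two-replicate regions, the nearest three-replicate region had a median fold enrichment of 3.27 where it was within 5 kb and 3.32 where it was farther, so the near ones were not stronger by this measure.

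Two-replicate regions near a three-replicate region were no stronger than the rest. The 338 within 5 kb had a median fold enrichment of 2.18, the 301 at 5 to 20 kb had 2.21 and the 430 beyond 20 kb had 2.22. Their median summit distances were 186, 176 and 165.5 bp. The share with a peak of the missing replicate within 1 kb was 56.5% in the nearest group, where the three-replicate region itself supplies a peak of every replicate, and 18.3% and 12.1% in the other groups. By strength, 35.4%, 34.8%, 30.7% and 25.5% of the two-replicate regions were within 5 kb of a three-replicate region, from the weakest of the 4 groups to the strongest, and the median distance in the strongest group was 18071 bp against 11061 bp in the weakest.

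Two-replicate regions occurred on all chromosome arms. Chromosomes 1 to 5 held 325, 148, 200, 138 and 258 of them, or 12.8, 9.78, 11.2, 8.92 and 11.8 per Mb of arm spanned by peaks, with 11.2 per Mb over all. Three-replicate regions had 15.4, 11.6, 14.8, 10.6 and 14.1 per Mb on the same chromosomes. As a share of all arm regions, two-replicate regions made up 12.3%, 13.0%, 12.4%, 12.9% and 11.7%, close to the 12.3% of the whole, so they followed the other classes over whole chromosomes. The left arm of chromosome 2 was an exception, with 14 two-replicate regions beside 10 three-replicate and 41 single-replicate regions. It was the only arm where two-replicate regions outnumbered three-replicate ones. The left arm of chromosome 4 had the lowest density, with 11 regions at 4.58 per Mb, and the left arm of chromosome 1 the highest, with 174 regions at 13.9 per Mb. The pair of replicates 1 and 2 was the most frequent on chromosome 2 (63 of 148), and the pair of replicates 2 and 3 on chromosomes 1 (117 of 325), 3 (81 of 200) and 5 (96 of 258). On chromosome 4 the pairs were nearly even, with 48 regions of replicates 1 and 3 and 45 of each other pair.

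**Figure D5:**
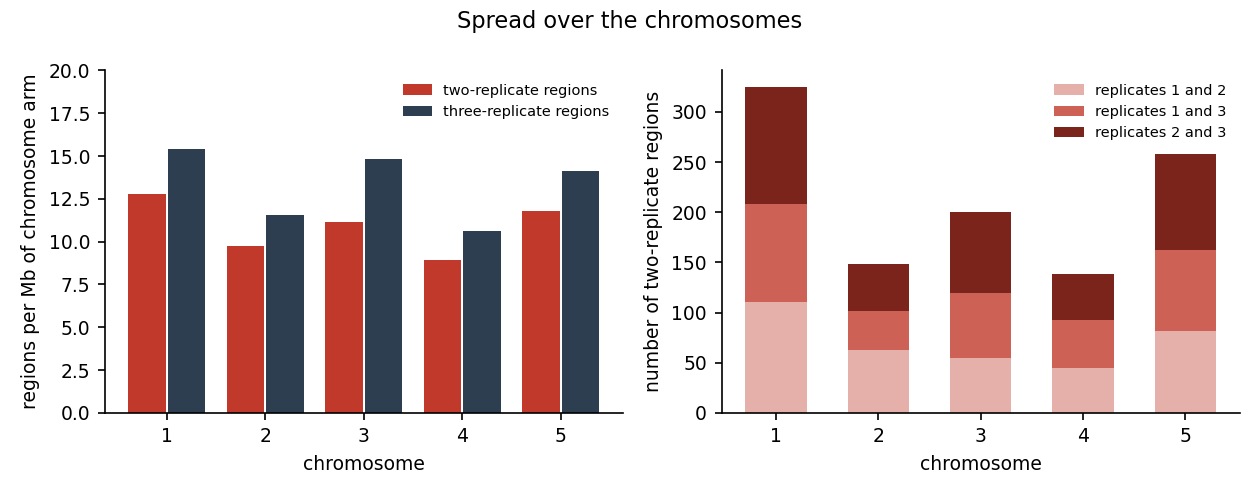
Left, two-replicate and three-replicate regions per Mb of chromosome arm for chromosomes 1 to 5. Right, the number of two-replicate regions on each chromosome split by the pair of replicates. Chromosome 1 has the highest density in both classes (12.8 and 15.4 per Mb) and chromosome 4 the lowest (8.92 and 10.6).

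In 91 windows of 1 Mb, the number of two-replicate regions ran from 2 to 25 with a median of 10. Across windows it varied together with the number of three-replicate regions (Spearman's rho of 0.639, 91 windows) and of single-replicate regions (0.642), as a description over windows whose counts come from the same 3 lists. The window with most two-replicate regions, 24.5 to 25.5 Mb of chromosome 5, had 25 of them beside 27 three-replicate regions.

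Genes could be named for 65 of the two-replicate regions (6.08%), through the names of their peaks in 1389 lines of the study's target table, which cover 842 genes; the other lines were not used here. A gene is in that table when peaks of all 3 replicates lie in the 2 kb upstream of it. These 65 regions were therefore selected for a peak of the missing replicate nearby, and 67 genes were linked to them, 6 regions to 2 genes each. The peak of the missing replicate listed for the gene lay 1 to 1608 bp from the region, with a median of 520 bp. It was not always the nearest peak of that replicate, to which the gaps above were measured. In 42 of the 71 combinations of gene and region it belonged to a three-replicate region, in 8 to another two-replicate region and in 21 to a single-replicate region. The median fold enrichment of the 65 regions was 2.19.

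None of the 67 genes was on the lists for the unfolded protein response and ER quality control (35 genes), the heat shock response (25) or abscisic acid, water deprivation and salt (47). Of these 107 genes, 20 occur in the lines used, and 0 of the 20 had a two-replicate region named for them, beside 67 of all 842 genes in those lines (7.96%). With so few list genes in the lines used, nothing is read from this count. The genes below were picked after their values were seen, for their known roles.

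Some linked genes encode signalling and hormone proteins. The region of *TOPP5*, which encodes a protein phosphatase, had fold enrichments of 2.81 in replicate 1 and 2.57 in replicate 3, and replicate 2 had a peak of its own with 2.04 at 28 bp. At *DWF4*, which encodes a hydroxylase of brassinosteroid synthesis, the values were 1.83 in replicate 1 and 2.35 in replicate 3, and the peak of replicate 2, with 2.44, lay 463 bp away. *IAA18*, an Aux/IAA repressor of auxin responses, had 2.32 in replicate 1 and 2.24 in replicate 2, with a peak of replicate 3 (2.33) at 681 bp. At all 3 genes the missing replicate's peak was a single-replicate region, beside the shared peaks and with a fold enrichment of 2.04 to 2.44. *JAZ3*, a repressor of jasmonate responses, had 1.89 in replicate 1 and 1.72 in replicate 2 with summits 8 bp apart, and replicate 3 had 2.23 at a gap of 1155 bp.

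Other linked genes had a stronger site next to the two-replicate region. The region of *PDCB5*, which encodes a callose-binding protein, had 2.05 in replicate 1 and 2.53 in replicate 3 with both summits at the same base, the only such case among the 1069. Replicate 2 had a peak with a fold enrichment of 7.69 at 277 bp, within a three-replicate region. At *ALP*, an aleurain-like protease, the values were 2.50 in replicate 1 and 2.23 in replicate 2, and replicate 3 had 5.38 at 68 bp, also in a three-replicate region. At *AGL29*, a MADS-box gene, they were 2.32 in replicate 2 and 2.13 in replicate 3, beside 13.7 in replicate 1 at 700 bp. *SYP41*, a syntaxin of the trans-Golgi network, had 1.93 in replicate 1 and 2.36 in replicate 3, beside 6.97 in replicate 2 at 590 bp. *BRM*, an ATPase of chromatin remodelling, had 2.38 in replicate 2 and 2.05 in replicate 3, beside 3.77 in replicate 1 at 712 bp. At these 5 genes the missing replicate's peak belonged to a three-replicate region and was higher than both peaks of the two-replicate region.

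At 4 genes, 2 two-replicate regions were listed for the same gene. *RAB1A*, a small GTPase of transport between ER and Golgi, had a region with 2.61 in replicate 1 and 2.29 in replicate 3 and a second with 1.90 in replicate 2 and 1.88 in replicate 3, so that the 2 regions together held all 3 replicates. *IAGLU*, a glucosyltransferase of indole-3-acetic acid, had 2.17 in replicate 2 and 2.60 in replicate 3 at one region and 2.13 in replicate 1 and 2.35 in replicate 3 at the other. *AT5G47390* had 2.38 in replicate 2 and 2.44 in replicate 3, and 28 bp away 2.85 in replicate 1 and 2.17 in replicate 2. *AT1G62490* had 2.10 in replicate 1 and 2.86 in replicate 2, and 74 bp away 2.11 in replicate 1 and 2.33 in replicate 3. No gene was assigned to the other regions, since no gene coordinates of the build of the lists were used here.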

How the data were processed

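ChIP-seq peak lists of 3 anti-MYC samples were used; 1 input entered only through peak calling. The authors trimmed reads with Skewer, dropped those under 50 bp, mapped them with Bowtie to unique positions, removed duplicates and called peaks with MACS in each sample, without pooling. The deposited pileup is a signal, the fragments stacked at the summit. The deposited fold enrichment is a ratio of pileup to the local background. The deposited lists also give the −log10 of the p-value and q-value from the authors' MACS run. Read totals were not used, so depth is unknown. The lists hold only peaks past the limit, so a missing peak is not a missing signal.

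Peaks were merged at 1 bp of overlap. In each replicate the peak with the highest fold enrichment was kept, and the implied background was (pileup + 1)/(fold enrichment) − 1. Arm lengths came from the span of the peaks. Moved positions beyond that span or in an excluded interval were dropped, as were those overlapping a three-replicate region or, for the gap measure, a peak of the missing replicate. Regions named by rule were the 10 highest by mean fold enrichment, the 5 by mean pileup with ties, the 3 with the largest ratio between replicates and the 3 with the lowest and highest weaker −log10 *P*, plus regions of list genes. Members, lists and rules were chosen with earlier results of these data known. Symbols came from the RefSeq table of TAIR10.1, which held 65 of the 67 genes; its coordinates were not used. Other overlap rules, peak limits and distances were tried, and replicates were left out singly. Merging was tested on simulated data. Scripts ran in Python 3.11.15 with NumPy 2.4.6, pandas 2.3.3, matplotlib 3.10.9 and SciPy 1.17.1.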

Additional observations from a re-analysis of the deposited data

How the results depend on the processing

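Of 45 alternative values, 29 stayed within the spread of the main ones, meaning 1.5-fold for counts and 1 SD over the 3 pairs of replicates for medians and shares. For medians and shares, the values with a replicate left out are the same 3 values that gave this SD. Whether those stayed within it was therefore partly fixed in advance and does not show stability. The number of two-replicate regions fell to 211 with peaks of a *q* value under 1e-05 and to 120 with a fold enrichment of at least 3; other overlap rules, a *q* value under 0.01 and other uses of the excluded intervals gave 873 to 1126. With a replicate left out, 1650 to 1724 regions held both others, since three-replicate regions then count too. The median fold enrichment was 2.26 at a *q* value under 0.01 and 2.81 at 1e-05, and 2.20 to 2.22 with only 1 pair of replicates. The median pileup was 35 at a *q* value under 0.01, 46.5 at 1e-05, and 33.5 to 34.5 by pair. The median distance to a three-replicate region was 29117 bp when only three-replicate regions with a mean fold enrichment of at least 3 counted, and 10606 to 17476 bp by pair, the highest without replicate 1. The share with a peak of the missing replicate nearby was 6.55% within 200 bp, 15.4% within 500 bp and 42.9% within 2 kb, and 24.7 to 30.4% by pair. The median summit distance kept to 168 to 184 bp. No paired analysis was possible because all 3 samples belong to 1 condition. Motif and promoter shares, and the count of flower genes, were not run, as no genome sequence or gene coordinates of the build of the lists were used here and the target table was used only in part. The unknown depth limits every statement on a missing peak.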
